A study of Mus musculus with 2 samples.

Results

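The 40 genes described here act in G2 and mitosis. They were taken from a list of symbols, not from their difference between libraries, and all 40 were found among the 31053 genes of the deposited tables. The list runs from the cyclins and the kinase that start mitosis to the motors that finish it. A cell was called a mitotic-score cell when at least 10 of every 10000 of its unique molecular identifiers (UMIs, one per captured RNA molecule) came from these 40 genes. By that threshold 4941 of 9472 cells were mitotic-score cells in one library and 4457 of 10769 in the other.

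The study compared blood-forming stem cells from mouse bone marrow with and without the transcription factor RUNX1, and asked how the make-up of that population differed. The cells were sorted as LSK CD150+, which means free of lineage markers, positive for Sca-1 and Kit and positive for CD150, the product of Slamf1. The model is Runx1 F/F Mx1-Cre, in which Cre recombinase under the interferon-responsive Mx1 promoter removes the loxP-flanked stretch of Runx1 in blood cells and in other cells that respond to interferon. Each genotype label, RUNX1 WT and RUNX1 KO, has 1 droplet library. Whether the WT mice carried the flanked alleles or Cre, how and when Cre was induced, and the age, sex and number of the mice were not stated in the labels.

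A dividing cell copies its DNA in S phase, prepares in G2 and separates the copies in mitosis. CDK1 with cyclin B drives entry into mitosis, the spindle and kinetochores align and pull the chromosomes, and the anaphase-promoting complex (APC/C) ends the process by marking cyclin B and securin for destruction. Many of these genes are silent or low in resting cells and are transcribed late in the cycle. Their transcription runs through the MuvB complex with B-MYB and FOXM1, which acts at a promoter element known as the cell cycle genes homology region (CHR). Another element common in such promoters is the CCAAT box. Stem cells at the top of the blood system are mostly resting, while their progeny divide often.

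Since the 40 genes share a time of transcription, their promoters were searched for those elements. RefSeq promoters (build GRCm38.p6, 250 bases before to 50 after the start site) were at hand for 35 of the 40 genes, as 36 promoters, and Aurkb, Ccna2, Tpx2, Pimreg and Cdc25c had no entry. The CHR core TTTGAA, read on both strands, was in 26 of 36 promoters (72.2%), against 5878 of 32851 promoters of all genes (17.9%). It began within 50 bases of the start site in 61.1% of them and in 4.94% of all promoters. CCAAT, also read on both strands, was in 77.8% against 37.4%, and both motifs were in 63.9% against 6.95%. The variant TTCGAA was in 11.1% against 1.56%. The words differ, so no stretch counts as more than 1 of them, though neighbouring matches may share end bases. The promoters of the 40 genes held more G and C, with a median of 58.8% against 52.7%. A match describes the letters only and does not show that a factor binds there.

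Of the promoters, 8 are shown, for genes that carry the results that follow, from 100 bases before to 25 bases after the start site. Capitals mark TTTGAA or its reverse complement TTCAAA, and CCAAT or its reverse complement ATTGG, and the choice was made after the matches were seen. The first 7 hold both motifs, and Birc5 is shown as one that holds neither in the printed window.
Cdk1 (chr10:69352888-69353012, minus strand): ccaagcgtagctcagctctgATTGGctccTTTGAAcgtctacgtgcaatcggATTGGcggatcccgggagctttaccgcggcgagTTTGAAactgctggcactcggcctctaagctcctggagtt
Ccnb2 (chr9:70421530-70421654, minus strand): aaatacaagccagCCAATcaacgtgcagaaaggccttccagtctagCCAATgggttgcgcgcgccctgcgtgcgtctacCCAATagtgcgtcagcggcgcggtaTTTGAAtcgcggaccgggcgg
Ube2c (chr2:164769829-164769953, plus strand): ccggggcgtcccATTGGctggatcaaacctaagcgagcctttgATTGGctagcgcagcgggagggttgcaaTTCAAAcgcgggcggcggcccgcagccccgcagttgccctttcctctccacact
Cdc20 (chr4:118437319-118437443, minus strand): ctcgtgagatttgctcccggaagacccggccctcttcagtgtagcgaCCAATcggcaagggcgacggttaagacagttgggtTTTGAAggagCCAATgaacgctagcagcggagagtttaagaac
Cenpa (chr5:30666786-30666910, plus strand): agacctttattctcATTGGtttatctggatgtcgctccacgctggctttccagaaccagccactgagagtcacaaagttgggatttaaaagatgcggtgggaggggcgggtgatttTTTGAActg
Kif23 (chr9:61946775-61946899, minus strand): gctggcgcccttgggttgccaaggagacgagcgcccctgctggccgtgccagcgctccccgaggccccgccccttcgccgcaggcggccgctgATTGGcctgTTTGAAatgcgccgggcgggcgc
Top2a (chr11:99024165-99024289, minus strand): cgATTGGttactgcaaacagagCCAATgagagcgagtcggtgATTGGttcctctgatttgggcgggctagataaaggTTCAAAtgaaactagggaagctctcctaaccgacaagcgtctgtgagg
Birc5 (chr11:117849137-117849261, plus strand): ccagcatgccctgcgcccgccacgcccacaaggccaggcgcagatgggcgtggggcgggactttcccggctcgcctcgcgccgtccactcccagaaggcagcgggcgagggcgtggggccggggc
Top2a and Ube2c carry the CHR core on the opposite strand and Cdk1 carries it in 2 places. Ccnb2 and Top2a have 3 CCAAT matches each in the printed stretch.

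The libraries held 112655858 UMIs in 9472 kept cells (WT) and 119272042 UMIs in 10769 kept cells (KO-labelled), with medians of 9884 and 9310 UMIs per cell. The targeted gene did not follow the labels: Runx1 had 104 CPM (UMIs of the gene per 1000000 UMIs) in WT cells and 196 CPM in KO-labelled cells. These are 3′ tags, which a deletion upstream of them can leave in place, and the labels do not name the deleted stretch, so this value does not check the label. The libraries also differed in sex, with Xist at 1.78 and 1319 CPM, and with 70.6% and 9.04% of cells with a UMI from a Y-linked gene and none from Xist (male cells hereafter). The sort markers Slamf1 (17.5 and 28.5 CPM), Kit (150 and 141 CPM) and Ly6a, which encodes Sca-1 (35.5 and 49.0 CPM), were detected in both. The libraries shared 39 cell barcodes. With 1 library per genotype there is no replicate, no test was made, and every interval is a 95% interval for counting error only. Genotype, sex, mouse and library cannot be told apart, and each direction given here is that of the library labelled RUNX1 KO.

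Summed over the 40 genes, the WT library held 4393 CPM and the KO-labelled library 4045 CPM, a ratio of 0.921 (0.917 to 0.925). Of the 40 genes, 35 had a lower level in the library labelled KO. That is 87.5%, beside 65.1% of the 5904 genes that reached 20 CPM in at least 1 library. The counting interval lay wholly under 1 for 31 genes (54.7% of the same 5904 genes), wholly over 1 for 3, and covered 1 for 6. None of the 40 reached a 1.5-fold difference either way, which 4.29% of the 5904 genes did. The median ratio was 0.917 for the 40 genes and 0.953 for all genes, on the log2 scale -0.13 and -0.070. Ratios ran from 0.790 for Sapcd2 to 1.10 for Kif23. Scaling by TMM, which sets the bulk of genes level, raised every ratio 1.07-fold, so that 26 of the 40 were lower, beside 43.4% of all genes, and 14 were higher. The 9 genes that crossed 1 under TMM were Ccna2, Ccnb1, Cdc25b, Aurkb, Birc5, Ube2c, Cdca3, Kif20b and Nusap1. Across the 40 genes the order of levels was nearly the same in both libraries (Spearman rho 0.994 across genes, which are not independent and share each library's depth).

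**Figure D1:**
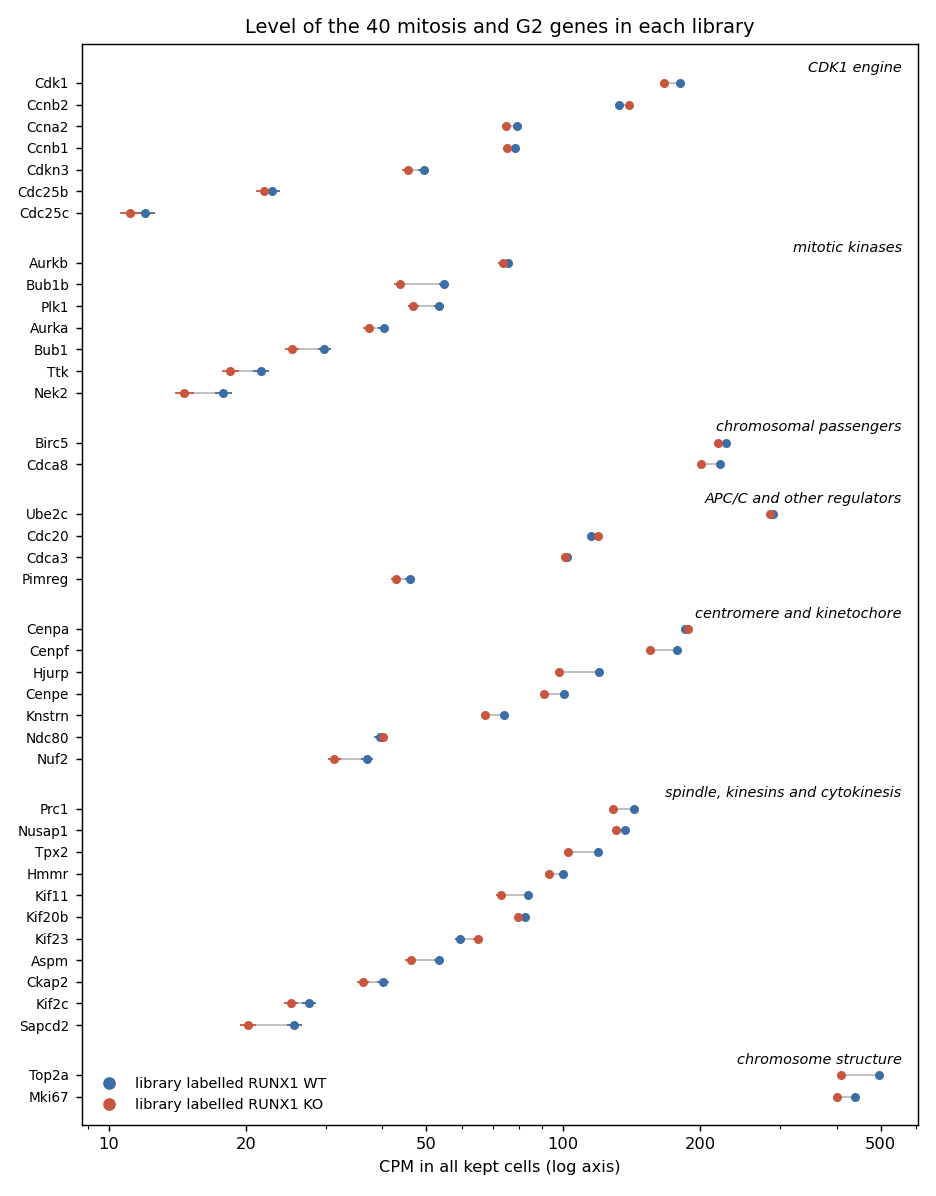
Level of each of the 40 genes in CPM on a log axis, grouped by role, in the WT (blue) and the KO-labelled library (red), with 95% Poisson intervals for counting error as horizontal bars, mostly narrower than the points. Top2a is at 496 and 410 CPM and Cdc25c at 11.99 and 11.2 CPM, and the red point lies to the right only for Ccnb2, Cdc20, Cenpa, Ndc80 and Kif23 (under TMM also for the 9 genes named in the text).

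The CDK1 engine was lower for 6 of 7 genes, beside 65.1% of all genes at 20 CPM or more. Its median ratio was 0.947, which TMM moves past 1. Cdk1, the kinase that drives mitotic entry (chr10:69335146-69352938 in GRCm38, minus strand), had 181 CPM (179 to 184) in the WT library and 166 CPM (164 to 169) in the KO-labelled one, a ratio of 0.919 (0.901 to 0.937). Ccnb2, one of its B-type cyclins (chr9:70407692-70421547, minus strand), went the other way, at 133 and 140 CPM, a ratio of 1.05 (1.03 to 1.08). Its partner cyclin Ccnb1 stood at 78.2 and 75.2 CPM, and Ccna2, the A-type cyclin of S phase and G2, at 79.1 and 74.9 CPM, both higher once TMM was used. The CDC25 phosphatases, which remove inhibitory phosphates from CDK1, stood at 22.8 and 21.9 CPM for Cdc25b, which crossed 1 under TMM, and at 11.99 and 11.2 CPM for Cdc25c. The intervals of both ratios reached 1. Cdkn3, a phosphatase that acts on CDKs, stood at 49.3 and 45.5 CPM.

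The mitotic kinases were lower for 7 of 7 genes, beside 65.1% of all genes at 20 CPM or more, with a median ratio of 0.856. Bub1b, which encodes the checkpoint protein BUBR1 (chr2:118598211-118641591, plus strand), stood at 54.6 CPM (53.2 to 56.0) and 43.7 CPM (42.5 to 44.9), a ratio of 0.800 (0.771 to 0.830). Its checkpoint neighbours Bub1 (29.8 and 25.3 CPM) and Ttk (21.6 and 18.5 CPM), which hold back anaphase until chromosomes are attached, had ratios of 0.851 and 0.856. Nek2, a kinase that separates centrosomes, stood at 17.9 and 14.7 CPM. Plk1 (53.3 and 46.8 CPM) and Aurka (40.3 and 37.3 CPM), which drive centrosome maturation and spindle assembly, had ratios of 0.878 and 0.926. Aurkb, the kinase of the chromosomal passenger complex (chr11:69045647-69051664, plus strand), stood at 75.5 CPM (73.9 to 77.2) and 73.6 CPM (72.0 to 75.1), a ratio of 0.974 whose interval reached 1 and which TMM turned. The other passengers were Birc5, which encodes survivin (chr11:117849251-117855743, plus strand), at 228 and 219 CPM, and Cdca8, which encodes borealin, at 221 and 201 CPM. Their ratios were 0.959 (0.942 to 0.975) and 0.911 (0.895 to 0.927), and Birc5 crossed 1 under TMM.

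The genes around the APC/C had a median ratio of 0.985 over 4 genes, and TMM takes that median past 1. Of the 4 genes 3 were lower, beside 65.1% of all genes at 20 CPM or more. Ube2c, the ubiquitin-conjugating enzyme of the APC/C (chr2:164769898-164778822, plus strand), stood at 291 CPM (287 to 294) and 285 CPM (282 to 288), a ratio of 0.982 (0.967 to 0.997) that TMM turned. Cdc20, which brings the APC/C to its mitotic substrates (chr4:118432901-118437352, minus strand), stood at 115 and 120 CPM, a ratio of 1.04 (1.01 to 1.06). Cdca3, a substrate-recognition factor for the degradation of WEE1, stood at 102 and 101 CPM, with an interval that covered 1 and a TMM ratio above 1. Pimreg, a regulator of the metaphase to anaphase step, stood at 46.0 and 42.9 CPM, a ratio of 0.931 (0.896 to 0.968).

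At the centromere and kinetochore 5 of 7 genes were lower, near the 65.1% of all genes at 20 CPM or more, with a median ratio of 0.903. Cenpa, the histone H3 variant that marks centromeres (chr5:30666777-30674830, plus strand), stood at 186 CPM (183 to 188) and 188 CPM (186 to 191), a ratio of 1.01 whose interval covered 1. Hjurp, the chaperone that loads Cenpa's product (chr1:88262471-88277633, minus strand), stood at 120 CPM (118 to 122) and 97.9 CPM (96.1 to 99.7), a ratio of 0.817 (0.797 to 0.838). The histone and its loader thus did not move together. Nuf2 and Ndc80, both subunits of the microtubule-binding NDC80 complex, also parted. Nuf2 stood at 37.0 and 31.4 CPM, a ratio of 0.849, and Ndc80 at 39.4 and 40.03 CPM, a ratio of 1.01 (0.974 to 1.06). Cenpe, a kinetochore motor, stood at 100 and 90.7 CPM. Cenpf, a large kinetochore protein, stood at 178 and 155 CPM, and Knstrn, a kinetochore adaptor, at 74.2 and 67.3 CPM.

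Among the genes of the spindle and of cytokinesis 10 of 11 were lower, beside 65.1% of all genes at 20 CPM or more. Their median ratio was 0.903. Prc1, which bundles microtubules in the central spindle (chr7:80294450-80316259, plus strand), stood at 143 CPM (141 to 145) and 129 CPM (127 to 131), a ratio of 0.903 (0.883 to 0.923). Kif23, the kinesin of the centralspindlin complex that cytokinesis needs (chr9:61915905-61946774, minus strand), had the highest ratio of the 40. It stood at 59.1 CPM (57.7 to 60.6) and 64.8 CPM (63.4 to 66.3), a ratio of 1.10 (1.06 to 1.13), but at a ratio of 0.974 in male cells alone. Sapcd2, linked to spindle orientation (chr2:25372321-25378213, plus strand), had the lowest, at 25.6 CPM (24.7 to 26.6) and 20.2 CPM (19.4 to 21.05), a ratio of 0.790 (0.748 to 0.834). Of the other kinesins, Kif11, which pushes spindle poles apart, stood at 83.8 and 72.8 CPM. Kif2c, which takes microtubule ends apart, stood at 27.6 and 25.2 CPM, and Kif20b, a kinesin of cytokinesis, at 82.3 and 79.7 CPM, the latter higher under TMM. Of the microtubule-associated genes, Tpx2, which activates Aurora A, stood at 120 and 103 CPM, and Aspm, a spindle pole protein, at 53.2 and 46.1 CPM. Hmmr, which helps to place the spindle, stood at 99.8 and 92.9 CPM and Ckap2, a microtubule stabiliser, at 40.1 and 36.2 CPM. Nusap1, which binds spindle microtubules near chromosomes, stood at 137 and 131 CPM, and its ratio of 0.952 crossed 1 under TMM.

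Both chromosome genes were lower, beside 65.1% of all genes at 20 CPM or more. Top2a, the topoisomerase that untangles sister DNA (chr11:98992943-99024189, minus strand), stood at 496 CPM (491 to 500) and 410 CPM (406 to 413), a ratio of 0.827 (0.817 to 0.837). Mki67, which encodes the Ki-67 coat of mitotic chromosomes (chr7:135689784-135716361, minus strand), stood at 440 CPM (436 to 444) and 401 CPM (398 to 405), a ratio of 0.911 (0.900 to 0.923). The tags are not scaled by length, so levels are compared between libraries and not between genes.

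Mitotic-score cells were 52.2% (51.2 to 53.2) of the WT library and 41.4% (40.5 to 42.3) of the KO-labelled one, a ratio of 0.793 (0.762 to 0.826). With every cell thinned to 3000 UMIs, which left out 155 and 91 shallower cells, the shares were 56.7% and 46.1%, a ratio of 0.813 (0.782 to 0.846). The 40 genes define the score, so their levels on either side of the threshold are a description. Within mitotic-score cells they summed to 6404 CPM in the WT library and to 6882 CPM in the KO-labelled one, a ratio of 1.07. In the remaining cells they summed to 413 and 368 CPM, a ratio of 0.889 (0.870 to 0.908). Mitotic-score cells held 96.8% and 96.0% of all UMIs of the 40 genes and 66.4% and 56.5% of all UMIs. They were deeper than the remaining cells, with medians of 12883 against 7239 UMIs in the WT library and 13253 against 7459.5 in the KO-labelled one. Their mitochondrial share was lower, at 4.74% against 5.26% and 4.22% against 4.47%. The ratio of shares was 0.771 without the 5% deepest cells and 0.698 under a stricter filter on cells (1000 genes or more, 5% mitochondrial UMIs or less). It was 0.839 with a threshold of 5 per 10000 and 0.804 with a threshold of 20.

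The score has no clean gap at its threshold: 660 WT cells (6.97%) and 582 KO-labelled cells (5.40%) scored from 8 to under 12, so the mitotic-score cells are a range and not a type. The median score was 11.6 per 10000 in the WT library and 6.34 in the KO-labelled one. Cells with no UMI of any of the 40 genes were 5.65% and 7.08%, or 15.6% and 21.8% after thinning. Scores above 0 and under 5 were found in 27.3% and 36.7% of cells. The 2 libraries came closest at the top and in the band below the threshold: scores of 100 and over were found in 11.5% (10.9 to 12.2) and 10.2% (9.67 to 10.8) of cells, and scores from 5 to under 10 in 14.9% and 14.8%.

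**Figure D2:**
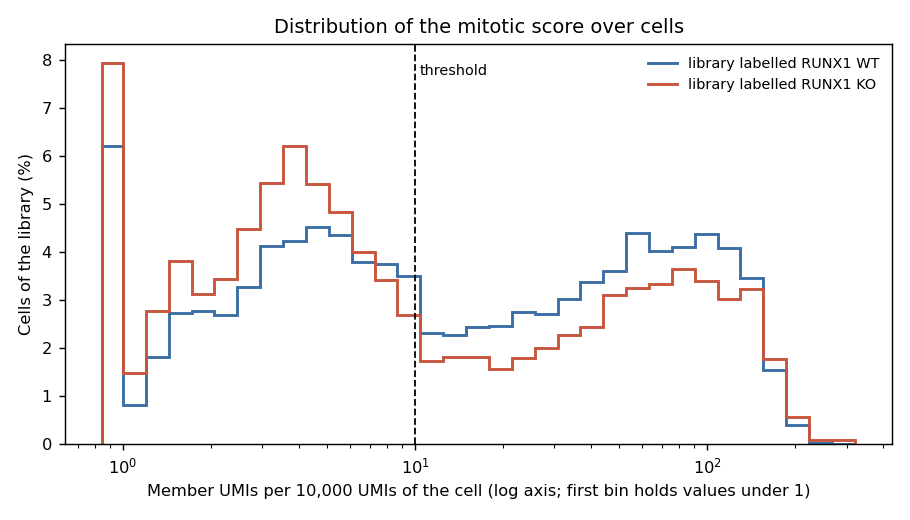
Percent of each library's cells (vertical axis) by mitotic score, in UMIs of the 40 genes per 10000 UMIs of the cell on a log axis, for the WT (blue) and the KO-labelled library (red), with the threshold of 10 dashed and scores under 1 gathered in the first bin. The red line is higher below a score of about 5 and lower from 10 to 100, and at 100 and over the libraries hold 11.5% and 10.2% of their cells.

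Inside the mitotic-score cells the direction differed from that over all cells. To keep a gene from choosing its own cells, those cells were selected for each gene by the other 39. The gene was then higher in the KO-labelled library for 33 of 40 genes, beside 38% of the 5894 genes at 20 CPM or more in such cells, with a median ratio of 1.07 against 0.963 for all genes. Under TMM the count was 38, beside 59.7% of all genes. The 40 genes vary together, so the threshold still sets part of these levels. The interval lay over 1 for 28 genes and under 1 for 4, and the share of all genes with such intervals in these cells was not taken. The 4 were Top2a (731 and 701 CPM, ratio 0.959), Hjurp (154 and 139 CPM, 0.905), Bub1b (79.3 and 74.3 CPM, 0.938) and Sapcd2 (37.8 and 35.0 CPM, 0.928). The highest ratios were those of Ccnb2 (193 and 238 CPM, 1.23), Kif23 (85.8 and 105 CPM, 1.22) and Cdc20 (167 and 201 CPM, 1.20). All 7 genes of the CDK1 engine and all 4 around the APC/C were higher there. Of the 7 mitotic kinases 4 were higher, with Ttk at 31.2 CPM and Bub1 at 44.0 CPM in both libraries.

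**Figure D3:**
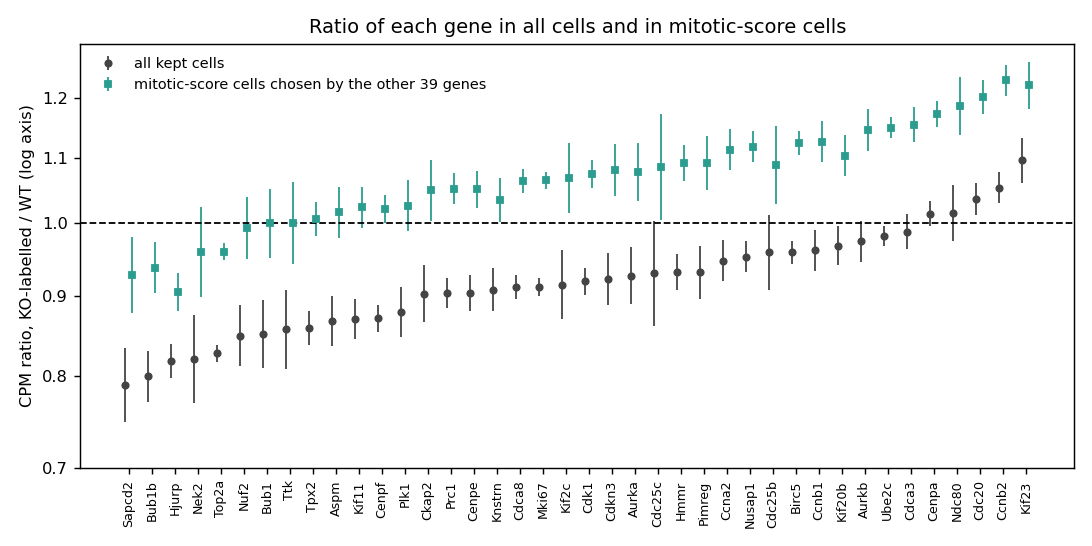
Ratio of CPM, KO-labelled over WT, on a log axis for each of the 40 genes, ordered by the ratio in all kept cells (black circles), with the ratio in mitotic-score cells chosen by the other 39 genes (green squares) and 95% counting intervals as vertical bars. The circles run from 0.790 for Sapcd2 to 1.10 for Kif23 and 35 lie under 1 (26 under TMM), while 33 of the squares lie over 1 (38 under TMM).

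Most of the genes were nearly confined to the high-scoring cells, and a few were not. The median gene had 97.3% of its UMIs in the mitotic-score cells chosen by the other 39 in the WT library and 97.0% in the KO-labelled one. Hmmr was the most restricted, at 99.2% and 99.0%, and 1.68% and 1.73% of the remaining cells held a UMI of it. Genes with under 95% numbered 8 in the WT library and 13 in the KO-labelled one. Hjurp was the least restricted, at 84.2% and 79.5%. Of the remaining cells 33.1% and 29.0% held a Hjurp UMI. In the cells left out by the other 39 the level of Hjurp was 54.7 and 45.4 CPM, and that of Hmmr 2.35 and 2.21 CPM. Free RNA in the droplets reaches all cells, and its part in these low levels was not tested. In the mitotic-score cells chosen by the other 39, Hjurp and Hmmr stood at 154 and 149 CPM in the WT library. In the KO-labelled library they stood at 139 and 163 CPM.

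Kif23 differed most between the libraries outside the mitotic-score cells. In cells scoring under 10 by all 40 genes its level was 6.21 CPM (WT) and 12.5 CPM (KO-labelled). Of those cells 4.81% and 9.43% held a UMI of it. In Procr-positive cells outside the mitotic-score cells it stood at 13.8 and 27.6 CPM. Over all cells under the threshold, 29 of the 40 had less in the KO-labelled library, with a median ratio of 0.871. Of all genes at 20 CPM or more there, 62.6% had less, with a median ratio of 0.955. The sum of the 40 chose these cells and so caps the levels of the 40, unlike those of other genes. The 40 were also not held to that floor, so these values are not compared like for like. Cdk1 was among the 29, with a UMI in 20.2% and 15.8% of those cells. Top2a stood at 62.1 and 47.6 CPM in them.

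The genes were then ordered by the phase of the cells that carried them. An S phase score was made in the same way from 35 genes of DNA replication and nucleotide supply, none of them among the 40. In both libraries the median S phase score was highest in cells just above the mitotic threshold, at 50.9 and 49.1 per 10000 for mitotic scores from 10 to under 20. It fell to 16.1 and 14.2 for mitotic scores of 100 and over. The mitotic-score cells thus hold many cells with a high S phase score, and the threshold does not separate mitosis from S phase.

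Mitotic-score cells with a UMI of Top2a had a mean S phase score of 35.9 ± 19.7 (SD over 4297 cells) in the WT library and 34.5 ± 21.01 (3865 cells) in the KO-labelled one, the highest in the WT library. Cdk1 (35.6 and 34.6), the highest in the KO-labelled library, came next in the WT library, before Mki67 (35.0 and 33.4) and Hjurp (34.8 and 33.1). At the other end stood Cdc25c, at 24.1 ± 14.8 (1032 cells) and 21.8 ± 15.3 (981 cells), then Cdc25b (24.7 and 23.3), Cdkn3 (25.2 and 24.4) and Nek2 (27.0 and 25.1). Nek2, whose carrying cells were the deepest in the WT library, moved from place 37 to 24 of 40 in the WT order after thinning and from 36 to 24 in the KO-labelled one. The cells of one gene overlap with those of the next and their spread is far wider than the steps between genes, so neighbours in the order do not differ beyond it. Detection follows depth, and the median depth of the carrying cells ran from 13384 to 15730 UMIs across genes in the WT library. The order was alike in the 2 libraries (Spearman rho 0.982 across genes, 0.946 after thinning). It was only weakly related to the ratio between libraries (rho -0.115 between the log2 ratio and the WT S phase score).

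**Figure D4:**
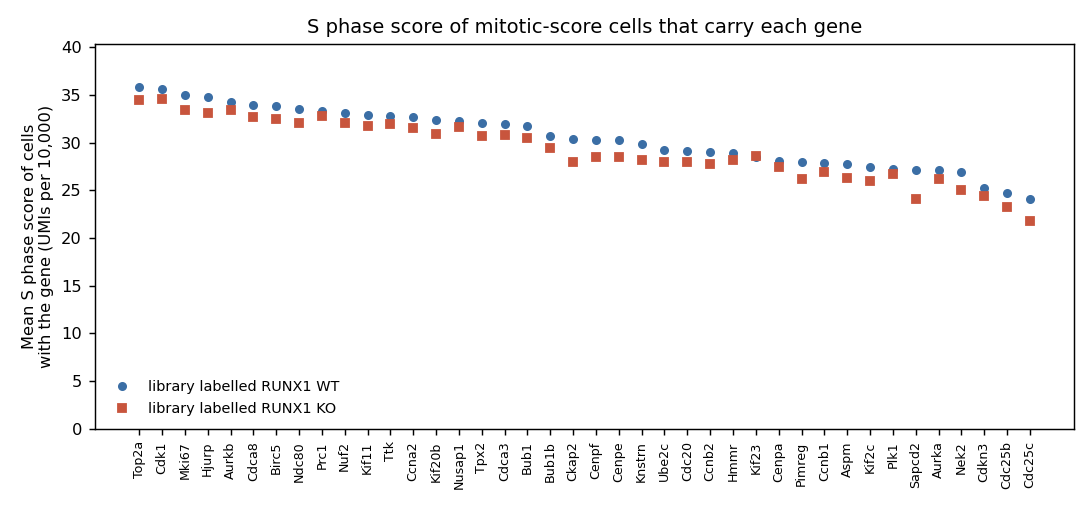
Mean S phase score, in UMIs of 35 S phase genes per 10000, of the mitotic-score cells that hold a UMI of each of the 40 genes, in the WT (blue circles) and the KO-labelled library (red squares), ordered by the WT value; SDs over cells, 14.8 to 21.1, are left out of the plot. The values fall from 35.9 and 34.5 for Top2a to 24.1 and 21.8 for Cdc25c, and the red squares lie below the blue circles for every gene but Kif23.

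Taking both scores together, cells low in both were 22.8% (21.9 to 23.6) of the WT library and 39.8% (38.9 to 40.7) of the KO-labelled one, with an S phase cut of 20 per 10000 chosen after the data were seen. With cuts of 15 and 30 the shares were 19.3% and 36.0%, and 30.004% and 46.1%. Cells high in S phase score but not in mitotic score were 25.1% and 18.8%, and cells high in both 37.1% and 26.5%. Cells high in mitotic score alone were 15.1% (14.4 to 15.8) and 14.9% (14.2 to 15.6), so the libraries differed least in that state. Its share at the other cuts was 8.98% and 10.9% at 15, and 24.0% and 20.7% at 30, so its direction turned with the cut.

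The share of mitotic-score cells was next read in cells that hold a marker gene, with 1 UMI or more of Procr (a stem cell surface receptor), Mpo (the peroxidase of granulocyte progenitors) or Car1 (carbonic anhydrase 1 of the erythroid line), or 3 UMIs or more of Pf4 (a platelet granule chemokine). Procr-positive cells had the lowest share in both libraries, 257 of 938 (27.4%, 24.6 to 30.4) in the WT library and 238 of 788 (30.2%, 27.0 to 33.5) in the KO-labelled one. The ratio was 1.10 (0.920 to 1.32). Pf4-positive cells had 61.6% and 51.7%, a ratio of 0.839 (0.777 to 0.904). That class held 3178 WT cells (33.6%) and 2042 KO-labelled cells (19.0%). Pf4 itself stood at 1483 and 485 CPM, so the same cut may not pick like cells in both libraries. Mpo-positive cells had 65.1% and 53.2%, a ratio of 0.817 (0.757 to 0.882). Car1-positive cells had 62.3% and 51.5%, a ratio of 0.826 (0.765 to 0.893). In the last 3 classes the share was about 10 to 12 percentage points lower in the KO-labelled library, while the Procr interval covered 1.

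The classes differ in depth, with WT medians of 7690.5 UMIs for Procr-positive, 12604.5 for Pf4-positive, 12920 for Mpo-positive and 11884 for Car1-positive cells. After thinning to 3000 UMIs, with classes read anew, the shares were 20.99% and 20.8% for Procr, 65.5% and 54.0% for Pf4, 64.7% and 54.4% for Mpo, and 65.9% and 52.9% for Car1. Cells outside the Procr class had 54.9% and 42.3% before thinning. Restricting the cells to at least 1000 genes and at most 5% mitochondrial UMIs kept 4985 WT and 8701 KO-labelled cells and turned the Procr ratio, with shares of 60.1% and 42.7%. In male cells the Procr shares were 32.8% and 27.6%, the latter over 58 cells.

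**Figure D5:**
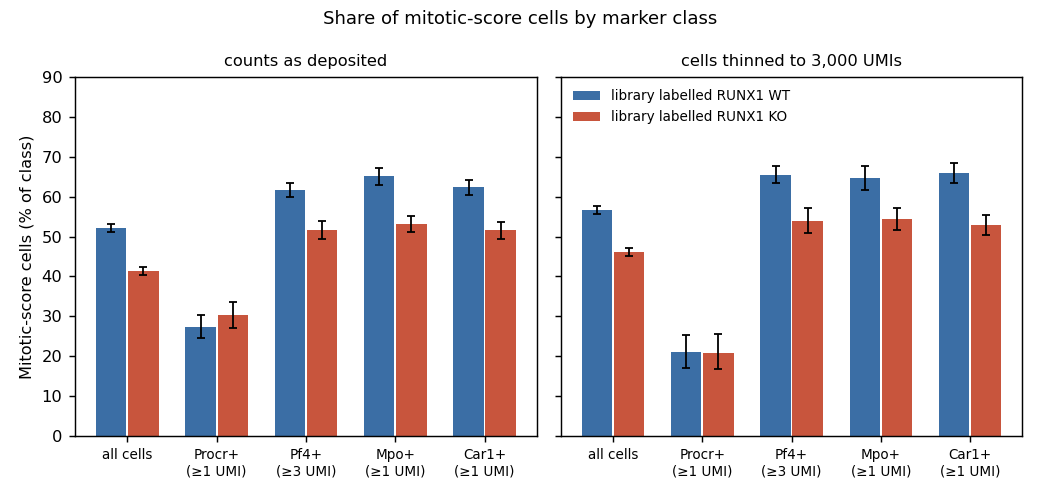
Percent of mitotic-score cells (bars, from 0) in all cells and in Procr-, Pf4-, Mpo- and Car1-positive cells, for the WT (blue) and the KO-labelled library (red), from the counts as deposited (left) and after thinning each cell to 3000 UMIs (right), with 95% Clopper-Pearson intervals. The Procr bars stand at 27.4% and 30.2% on the left and at 20.99% and 20.8% on the right, below every other class, and the red bar is the lower one in the other classes.

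Levels of the 40 genes were read in the same classes, beside all genes at 20 CPM or more there. In Procr-positive cells 37 of 40 genes were higher in the KO-labelled library, beside 41.2% of all genes, with median ratios of 1.15 and 0.968. Of the 40 intervals 19 lay over 1, a count for which no share of all genes was taken. With the stricter filter on cells 12 of 40 were higher, beside 38.3% of all genes, with median ratios of 0.951 and 0.946. Kif23 stood at 49.0 and 74.7 CPM in Procr-positive cells, a ratio of 1.52 (1.35 to 1.72), Ccnb2 at 89.6 and 120 CPM and Top2a at 348 and 363 CPM. In Pf4-positive cells 20 genes were higher and 20 lower, beside 38.7% of all genes higher, with median ratios of 1 and 0.957. In Mpo-positive cells 31 were lower, beside 65.5% of all genes, with medians of 0.954 and 0.953. In Car1-positive cells 30 were lower, beside 61.5% of all genes, with medians of 0.953 and 0.962. The medians of the 40 genes in the Mpo and Car1 classes thus lay near those of all genes, and the TMM factor of 1.07 would take both past 1. Top2a had ratios of 0.891, 0.875 and 0.876 in those 3 classes.

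The classes overlap, and 17.7% of WT and 12.03% of KO-labelled cells were in more than 1. Cells with Procr and none of the other class genes, a class added after the data were seen, had lower shares than any of the 4 classes, 78 of 562 (13.9%, 11.1 to 17.0) and 105 of 505 (20.8%, 17.3 to 24.6). Their ratio was 1.498 (1.11 to 2.03), but 0.920 with the stricter filter, 1.22 (0.831 to 1.78) after thinning and 0.661 (0.174 to 1.78) in male cells, with 4 mitotic-score cells among 36 in the KO-labelled library. Cells in none of the 4 classes had 42.7% and 32.4%. Among further single genes read in the same way, also added later, the stem cell genes did not move alike. Ly6a gave 34.8% and 34.0%, while Hlf (49.4% and 40.9%, ratio 0.828) and Mecom (49.7% and 40.9%, ratio 0.823), both transcription factors of stem cells, had lower shares in the KO-labelled library. After thinning the shares were 25.7% and 29.0% for Ly6a, 41.9% and 38.4% for Hlf, and 43.7% and 36.5% for Mecom. These classes are broad: Hlf-positive cells were 42.0% and 36.5% of the kept cells and Mecom-positive cells 39.6% and 17.2%. Gata1, a transcription factor of the erythroid and megakaryocyte lines, gave 67.9% and 51.3%. Cells low in both scores made up 54.7% and 60.2% of Procr-positive, 9.16% and 24.1% of Pf4-positive, 12.4% and 28.7% of Mpo-positive and 17.7% and 33.9% of Car1-positive cells.

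The marker lists were also read on either side of the threshold. How many of all genes were higher in mitotic-score cells was not counted, so the counts of markers there have no background. Of 9 stem cell markers none was higher in mitotic-score cells than in the rest in either library, and their summed level was 379 against 688 CPM (WT) and 351 against 604 CPM (KO-labelled). All 7 erythroid markers were higher in mitotic-score cells, with sums of 893 against 400 CPM and 1053 against 383 CPM. All 5 granulocyte-monocyte markers were higher too, with sums of 1946 against 1147 CPM and 2525 against 1404 CPM. Megakaryocyte markers were higher for 4 of 8 and 2 of 8 genes, with sums of 2265 against 1844 CPM and 1103 against 1173 CPM. Between the libraries the megakaryocyte sum was 2124 and 1134 CPM. Pf4 alone made up that difference (1483 and 485 CPM), since the other 7 genes summed to 641 and 649 CPM, with Itga2b (1.27), Gp9 (1.41) and Treml1 (2.33) higher by ratio in the KO-labelled library. The neutrophil sum was 109 and 593 CPM over 5 genes and the lymphoid-primed sum 106 and 173 CPM over 4. Of the basophil and mast cell markers Prss34 (109 and 0.0587 CPM), Mcpt8 (108 and 0.755 CPM), Fcer1a (23.6 and 0.176 CPM) and Gzmb (1.12 and 0.0755 CPM) were close to 0 in the KO-labelled library, while Cpa3 stood at 46.4 and 164 CPM. B cell (33.1 and 38.7 CPM), macrophage (12.6 and 9.99 CPM) and endothelial sums (28.1 and 30.5 CPM) were low. None of the marker genes was at 0 in both libraries. The part of this cell make-up in the ratios of the 40 genes was not tested, beyond the values within classes given above.

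Genes of the same pathways outside the 40 were read from 4 lists, at 20 CPM or more in either library, where 65.1% of all genes were lower (43.4% under TMM) with a median ratio of 0.953. Of 46 other G2/M genes 41 had less in the KO-labelled library, with a median ratio of 0.874. All 55 on that list were higher in mitotic-score cells, a count with no share of all genes beside it. The sums were 8116 against 1980 CPM (WT) and 8407 against 1772 CPM (KO-labelled). The lowest ratios were those of Ckap2l, a spindle protein (81.8 and 49.2 CPM, 0.602), Cit, the citron kinase of cytokinesis (47.8 and 35.4 CPM, 0.740), and Rangap1, the GTPase activator of Ran (100 and 75.0 CPM, 0.747). The highest were Bora, an activator of Aurora A (72.3 and 81.8 CPM, 1.13), Bub3, a checkpoint protein (165 and 174 CPM, 1.06), and Fzr1, an APC/C activator (63.9 and 67.0 CPM, 1.05).

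All 33 S phase genes at 20 CPM or more were lower, with a median ratio of 0.855. Of their intervals 30 lay under 1, as did those of 54.7% of all genes at that level. Uhrf1, which guides DNA methylation to new strands (74.5 and 50.6 CPM, 0.680), E2f8, a repressor of the cell cycle (53.3 and 36.7 CPM, 0.689), and Hells, a chromatin remodeller (76.4 and 55.8 CPM, 0.731), were lowest. The ratios nearest 1 were 0.997 for Cdc6, which loads the MCM helicase at origins, and 0.987 for Cdc45, which helps to fire them. Next came 0.983 for Rrm2, a ribonucleotide reductase subunit. Under TMM all 3 cross 1, as do Fen1 (0.966), Chaf1b (0.963), Prim1 (0.959), Tipin (0.938) and Rad51ap1 (0.935). Of the 2 S phase genes below 20 CPM, named after their values were seen, the E-type cyclins, Ccne1 stood at 12.3 and 18.4 CPM, a ratio of 1.49 (1.39 to 1.59), and Ccne2 at 17.3 and 13.2 CPM, a ratio of 0.763.

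Of the CDK inhibitors and genes of quiescence at 20 CPM or more, 8 of 9 were higher, with a median ratio of 1.33. Below that level, Cdkn1c, which encodes the CDK inhibitor p57 and was named after its value was seen, went the other way, at 11.04 and 4.59 CPM, a ratio of 0.416 (0.376 to 0.460). Cdkn1a (1.13) and Rb1 (1.06) had intervals that covered 1. Cdkn2c, which encodes the CDK4 and CDK6 inhibitor p18, stood at 39.5 and 65.6 CPM (1.66), Txnip, an inhibitor of thioredoxin, at 171 and 270 CPM (1.58), and Ccng2, an unconventional cyclin linked to cell cycle exit, at 15.9 and 24.7 CPM (1.55). Rbl2 (0.971, above 1 under TMM), Foxo3 (1.03) and Cdkn2d (1.04) had the lowest ratios at 20 CPM or more. APC/C subunits and cohesin, which are less tied to G2, were lower for 17 of 20 genes, with a median of 0.903. Their lowest were the cohesin regulators Pds5b (0.787) and Pds5a (0.794) and the APC/C subunit Anapc1 (0.788). Their highest were Anapc16 (1.09), the cohesin release factor Wapl (1.06) and Anapc4 (1.01).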

How the data were processed

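Values are UMI counts per gene and cell barcode, deposited by the authors and used as they stand. They were made with Cell Ranger 2.1.1 on mm10, per the submitters' processing notes, though the file headers name software version 3.1.0. The kit was the 3′ v2 kit, per the labels' protocols. The aim of about 10000 sorted cells per library, per those protocols, compares with 9969 and 11398 barcodes in the files.

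Barcodes with at least 500 genes and at most 10% mitochondrial UMIs were kept, which left out 497 and 629. Doublets were not removed. An alternative left out the 5% of cells with the most UMIs. UMIs were summed per library and divided by the library total (CPM). Intervals are exact, at 95%, and cover counting error only: Poisson for sums, conditional binomial for ratios, Clopper-Pearson for shares. A library at 0 would have been set to 3 counts. The ratio code was tested on simulated data. Marker classes need 1 UMI, or 3 for Pf4, and thinning drew 3000 UMIs per cell with a fixed seed. Male cells had a UMI of 4 Y-linked genes and none of Xist.

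The 40 genes, the other lists and the alternatives were chosen with earlier results of these data known, so they are no independent support. Every one of the 40 was given. Full intervals went to the highest WT level and the highest and lowest ratio in each of 7 role groups, and of each other pathway list the 3 highest and 3 lowest ratios at 20 CPM or more were named. The marker lists were stem cell, megakaryocyte, granulocyte-monocyte, erythroid, neutrophil, basophil and mast cell, lymphoid-primed, B cell, macrophage and endothelial. Gene positions are from GENCODE release M21 (GRCm38), promoters from RefSeq (GRCm38.p6). Python 3.11.15, numpy 2.4.6, scipy 1.17.1, pandas 2.3.3 and edgeR 4.0.16 (TMM factors only) were used.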

Additional observations from a re-analysis of the deposited data

Results flagged for a closer look

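Among the 4 marker classes, the ratio of mitotic-score cell shares was 1.10 in Procr-positive cells (27.4% in the WT library and 30.2% in the KO-labelled one) and under 1 in Pf4-, Mpo- and Car1-positive cells. It is listed because its direction differs from that of the other classes. The difference was not tested, since there is 1 library per genotype. The counting interval of 0.920 to 1.32 covers 1, and the ratio was 0.711 with at least 1000 genes and at most 5% mitochondrial UMIs per cell, 0.992 after thinning and 0.841 in male cells.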

How the results depend on the processing

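The median log2 ratio of the 40 genes (-0.13) stayed under 0 in all 8 alternatives, while the median of all genes moved from -0.070 to 0.028 under TMM. It was -0.028 with TMM, -0.071 without ribosomal protein and mitochondrial genes in the total, -0.26 with at least 1000 genes and at most 5% mitochondrial UMIs per cell, -0.15 without the 5% deepest cells, -0.24 after thinning and -0.17 in male cells. Between 26 (TMM) and 39 (stricter filter) of the 40 genes were lower, beside 43.4% and 65.9% of all genes at 20 CPM or more. After thinning 38 were lower, beside 64.6% of all genes, and in male cells 34, beside 64.9%. The median log2 ratio of all genes was -0.083 with the stricter filter, -0.075 after thinning and -0.078 in male cells. The ratio of mitotic-score cell shares stayed under 1 in all 7 alternatives and was 0.698 with the stricter filter, 0.732 in male cells and 0.839 with a threshold of 5 per 10000. With the stricter filter the class ratios were 0.711 (Procr), 0.765 (Pf4) and 0.750 (Mpo). In male cells they were 0.841 (Procr), 0.664 (Pf4) and 0.723 (Car1). The Mpo ratio was 0.893 (0.782 to 1.02) at 3 UMIs or more, and the Car1 ratio 0.757 without the deepest cells. The cause of these moves was not tested. The Procr ratio was under 1 in 4 of its 8 alternatives, and the Pf4, Mpo and Car1 ratios in all 8 of theirs. The cell class with Procr alone and the cuts on the S phase score were added after the data were seen. No paired analysis was possible because each genotype has 1 library. The Procr class is small in some alternatives: 73 WT and 38 KO-labelled cells at 3 UMIs or more, and 58 KO-labelled cells among the male ones, where few of that library's cells were male.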
